A study of Mus musculus with 4 samples.

Results

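The Usp17l genes encode ubiquitin-specific proteases of the mouse USP17 (DUB) family. All rows whose gene symbol starts with Usp17l were taken, which gave 4 genes (Usp17la, Usp17lb, Usp17lc and Usp17ld) of 24190 listed gene symbols, and 6 transcripts of 58853. The samples were 4 populations of mouse embryonic stem cells (ESCs) with 1 RNA library each. They came from 2 clonal lines of ES-E14TG2a (E14), an established male mouse ESC line. All cells of both lines carried a stably integrated reporter with the promoter of Zscan4c, a gene switched on at the 2-cell stage of the mouse embryo. The first, the GFP line, expressed GFP alone from this promoter. The second, the GFP-Zscan4c line or fusion line, expressed Zscan4c joined to GFP, so its GFP-positive cells also made the fusion protein. Both lines were grown without serum in medium with a MEK inhibitor and a GSK3β inhibitor. Cell sorting on fluorescence separated each line into GFP-negative cells, labelled pluripotent, and GFP-positive cells, labelled 2C-like. Each line was 1 clone, so line and clone cannot be told apart.

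USP enzymes are cysteine proteases that cut ubiquitin from proteins and so protect their substrates from degradation or reverse ubiquitin signals. The first mouse members, DUB-1 (Usp17la) and DUB-2 (Usp17lc), were found as genes that cytokines switch on quickly in blood cell lines. Transcripts of the family are also known from the mouse 2-cell embryo and from 2C-like ESCs, a small and transient state in ESC cultures that transcribes genes of that stage. The 4 listed genes are protein-coding and lie in olfactory receptor clusters of chromosome 7 (GRCm38, GENCODE M21): Usp17ld at chr7:103249737-103252505 on the minus strand, Usp17lc at chr7:103415072-103419880 on the plus strand, Usp17lb at chr7:104840257-104842603 on the minus strand and Usp17la at chr7:104857009-104862667 on the plus strand. Usp17lc and Usp17ld thus form one pair within 170 kb and Usp17la and Usp17lb another within 22.4 kb, with 1.42 Mb between the pairs. Usp17le (chr7:104768049-104777470) and the pseudogene Usp17le-ps (chr7:104652252-104653208), which lie between the pairs, had no row and were not analysed here.

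The promoters show how alike the copies are. The 250 bases before each RefSeq start (GRCm38.p6) follow, 5′ to 3′ on the strand of the gene, at chr7:104856766-104857015 (plus strand) for Usp17la, chr7:104842584-104842833 (minus) for Usp17lb, chr7:103416446-103416695 (plus) for Usp17lc and chr7:103252506-103252755 (minus) for Usp17ld. All 4 symbols matched the RefSeq table. Capitals mark the TATA box letters TATAAA, and in Usp17la the bases that align with the box of Usp17lc.
Usp17la: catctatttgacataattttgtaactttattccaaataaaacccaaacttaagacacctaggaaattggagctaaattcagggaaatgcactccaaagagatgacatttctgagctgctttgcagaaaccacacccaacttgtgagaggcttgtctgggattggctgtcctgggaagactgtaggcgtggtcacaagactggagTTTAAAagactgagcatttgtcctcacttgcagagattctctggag
Usp17lb: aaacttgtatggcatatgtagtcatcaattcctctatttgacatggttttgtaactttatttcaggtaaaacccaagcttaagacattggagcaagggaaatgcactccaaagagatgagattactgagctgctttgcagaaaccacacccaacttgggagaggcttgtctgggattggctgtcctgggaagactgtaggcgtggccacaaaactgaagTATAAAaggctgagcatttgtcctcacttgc
Usp17lc: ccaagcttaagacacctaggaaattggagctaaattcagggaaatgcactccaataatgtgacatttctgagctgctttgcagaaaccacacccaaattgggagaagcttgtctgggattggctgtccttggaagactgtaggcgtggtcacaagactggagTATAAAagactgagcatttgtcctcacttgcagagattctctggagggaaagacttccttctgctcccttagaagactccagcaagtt
Usp17ld: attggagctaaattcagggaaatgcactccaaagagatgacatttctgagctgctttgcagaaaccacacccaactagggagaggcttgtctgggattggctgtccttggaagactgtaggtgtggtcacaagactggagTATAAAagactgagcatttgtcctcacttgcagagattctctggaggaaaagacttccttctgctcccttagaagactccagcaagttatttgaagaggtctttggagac

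Over windows of 300 bases that also hold the first 50 bases after the start, the promoters were 86.0% to 96.8% identical over 221 to 286 aligned columns. The most alike were those of Usp17lc and Usp17ld at 96.8%, and the least alike those of Usp17lb and Usp17lc at 86.0%. TATAAA, sought on both strands, stood in 3 of the 4 windows, beginning at -31 in Usp17lb, -88 in Usp17lc and -110 in Usp17ld, in bases from the RefSeq start. Of 32544 RefSeq promoters of the same length, 13.6% held it. Usp17la had TTTAAA at the aligned place, which is A2T relative to the box of Usp17lc, counted from 1 at its 5′ end. None of the 4 windows held GATTNAATC, the core of the motif of the 2-cell factor Dux (0.252% of all promoters did), TGCACAC, the motif known for Zscan4 (4.42%), or CA repeated 5 times, a short microsatellite (1.61%), each sought on both strands; the last 2 motifs can overlap in part. The other annotated start of Usp17lc, at chr7:103415072, lies outside the window of that gene and was not searched. A match or its absence describes these letters of the reference genome only.

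All 4 Usp17l genes were present in both GFP-positive libraries and stood at 0 in the GFP-negative library of either line. Values are TPM, transcript abundances scaled by length and to a fixed total, which can be compared between genes, but the deposited tables keep no read counts, so the depth and the counting error of each value are unknown. With 1 library per population there is also no replicate error. Usp17lb (DUB-1A) stood at 0 in the sorted negatives of the GFP line and at 30.7 TPM in its positives, and at 0 and 99.98 TPM in the fusion line. It was the highest member in both GFP-positive libraries.

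Usp17la (DUB-1) was at 0 and 12.4 TPM in the GFP line, then at 0 and 50.8 TPM in the fusion line. Usp17lc (DUB-2) was at 0 and 24.4 TPM, then at 0 and 42.2 TPM, in the same order as all values below: GFP-negative before GFP-positive, and the GFP line before the fusion line. Usp17ld (DUB-2A) was at 0 and 19.1 TPM, then at 0 and 2.88 TPM. In each gene every GFP-positive value lay above both GFP-negative ones, as in 32.8% of 16218 symbols that reached 1 TPM in any library. The order of levels differed between the lines: Usp17lb, Usp17lc, Usp17ld and Usp17la in the GFP line, against Usp17lb, Usp17la, Usp17lc and Usp17ld in the fusion line. Without replicates no spread was available to say which neighbours in these orders differ. The family sum was 0 and 86.5 TPM in the GFP line, GFP-negative value first, and 0 and 196 TPM in the fusion line. In RNA from bulk sorted cells, more cells with a transcript and more of it per cell cannot be told apart.

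**Figure D1:**
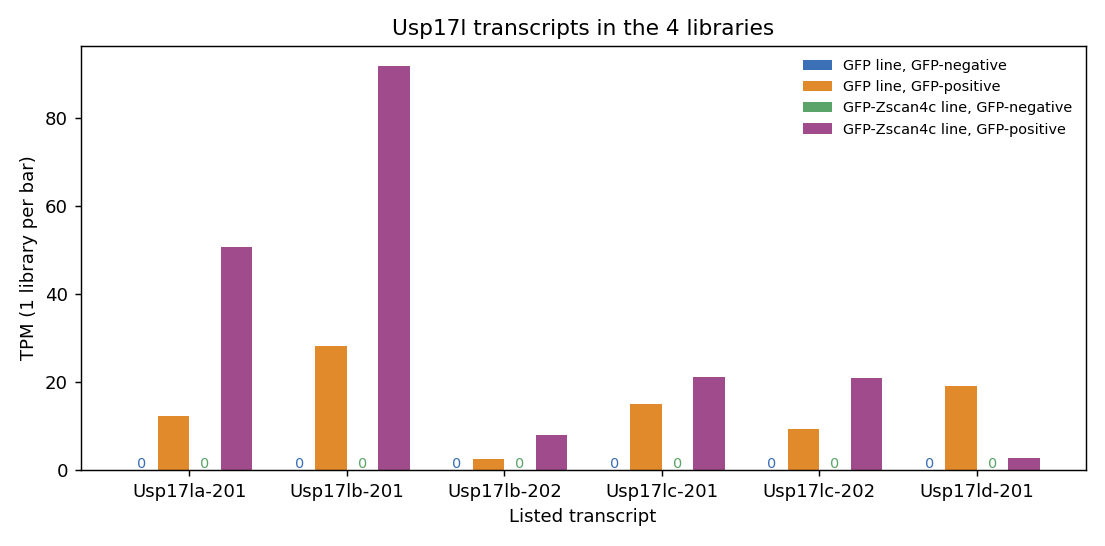
TPM (vertical axis, linear from 0) of the 6 listed Usp17l transcripts in the 4 libraries; each bar is 1 library, and a 0 stands where a transcript was listed at 0. Every transcript stood at 0 in either GFP-negative library, Usp17lb-201 had the tallest bars at 28.2 and 91.9 TPM, and only Usp17ld-201 was lower in the fusion line.

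The zeros have to be read against the libraries. In the GFP line, the GFP-negative library had 48.4% of all symbols listed at 0, against 11.6% to 19.5% in the other 3 libraries. In the GFP-negative library of the fusion line, with 19.5% of symbols at 0, the 4 genes were also at 0.

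On the log2(TPM + 1) scale the GFP-positive family sum lay 6.45 above the GFP-negative one in the GFP line and 7.62 above it in the fusion line. With GFP-negative values of 0 the size of these differences is set by the added 1 TPM and is no fold change. All 4 genes differed by 2-fold or more on that scale in the GFP line, where 38.2% of 15152 symbols at 1 TPM or more in either library were as much higher, and in the fusion line, where 11.5% of 15042 were. In both lines at once 5.83% of symbols were 2-fold or more higher, and all 4 members were. For a gene at 0 in GFP-negative cells, 1 TPM in GFP-positive cells is already 2-fold on this scale. The filter and the added 1 TPM thus fixed the counts of the 4 members, and nothing is read from them.

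Over both lines, a limma model of log2(TPM + 1) with GFP status and line as terms called 0 of the 4 genes at an adjusted p under 0.05, as it called 0 (0%) of 14379 genes higher in GFP-positive cells. At an unadjusted p under 0.05 the counts were 4 members and 848 (5.90%) of all genes. The members passed the filter on low values only through the GFP-positive libraries, so nothing is read from their count. The estimate for Usp17lb was 5.82 with a standard error (SE) of 0.92 (adjusted p = 0.460, limma with Benjamini-Hochberg adjustment). Usp17lc had an estimate of 5.05 (SE 0.87), Usp17la of 4.72 (SE 0.98) and Usp17ld of 3.14 (SE 0.85), with adjusted p of 0.460, 0.460 and 0.581. Each gene leaves 1 residual degree of freedom. Nothing says that the sorts came from independent cultures, and the p-values then cover no more than the spread among these 4 libraries. Quantile normalization called 3 of the 4 genes, and without the GFP-negative library of the fusion line and without the line term limma called 2, Usp17lb and Usp17lc. An exact two-sided permutation test of the family sum over 2 GFP-positive and 2 GFP-negative libraries gave p = 0.333, the smallest p that this design allows.

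GFP-positive cells with the fusion had more Usp17l RNA in sum than those with GFP alone, but the members differed in direction. The family sum was 2.26 times higher in the fusion line. Usp17la was 4.11 times higher, Usp17lb 3.26 times and Usp17lc 1.73 times, while Usp17ld was lower, at 0.151 times its value in the GFP line. On log2(TPM + 1) values, Usp17la and Usp17lb were 2-fold or more higher, as were 7.59% of 15262 symbols, and Usp17ld was 2-fold or more lower, as were 6.20%. This comparison sets 1 library against 1 and has no test.

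The make-up of the family shifted towards the distal pair of genes. Usp17lb made up 35.5% of the family sum in the GFP line and 51.1% in the fusion line, Usp17la 14.3% and 25.9%, Usp17lc 28.1% and 21.5%, and Usp17ld 22.1% and 1.47%. Added up, the proximal pair Usp17lc and Usp17ld stood at 43.5 TPM in the positives of the GFP line and at 45.1 TPM in those of the fusion line, a ratio of 1.04. The distal pair Usp17la and Usp17lb stood at 43.0 and 151 TPM, a ratio of 3.50. The pairs were thus nearly equal in the GFP line, while the distal pair held 77.0% of the sum in the fusion line. The pairing by position was made after the values were seen.

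**Figure D2:**
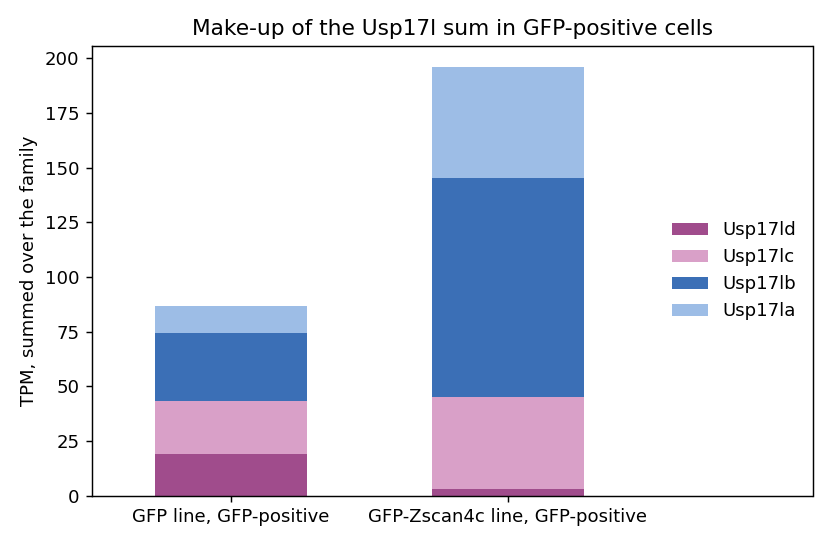
Family TPM (vertical axis, linear from 0) in the GFP-positive libraries of both lines, stacked by gene; each column is 1 library. The lower 2 segments, Usp17ld and Usp17lc, add up to 43.5 and 45.1 TPM, and the upper 2, Usp17lb and Usp17la, to 43.0 and 151 TPM.

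How far reads can be divided among the copies differs between the members. The coding sequences of Usp17lc and Usp17ld were 98.4% identical over 1638 aligned columns, and every other pair of genes was 87.6% to 90.9% identical. Of all 50-base windows of Usp17ld-201, 51.1% occurred in a transcript of another gene of GENCODE M21, and of Usp17lc-201 61.6%. For Usp17lb-201 the share was 24.2% and for Usp17la-201 20.4%. With 100-base windows the shares were 39.5% and 46.6% for Usp17ld-201 and Usp17lc-201, and 11.8% and 3.83% for Usp17lb-201 and Usp17la-201. The read length is not given in the sources used here. The opposite shifts of Usp17lc and Usp17ld between the lines therefore lie in the pair that shares most of its sequence, and the part of read assignment in them was not tested. The sum of that pair does not depend on how reads were divided within it, apart from the scaling by transcript length and reads shared with other genes. Windows of the members were also found in Usp17le, Usp17le-ps and Gm5053, a processed pseudogene at chr7:108527397-108529074, none of which had a row. Usp17la-201 also shared 50-base windows with many genes outside the family, among them Usp4, which had a row. Of its 50-base windows 8.29% occurred in another listed member. For Usp17lb-201 that share was 20.3%, for Usp17ld-201 50.4% and for Usp17lc-201 60.6%.

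**Figure D3:**
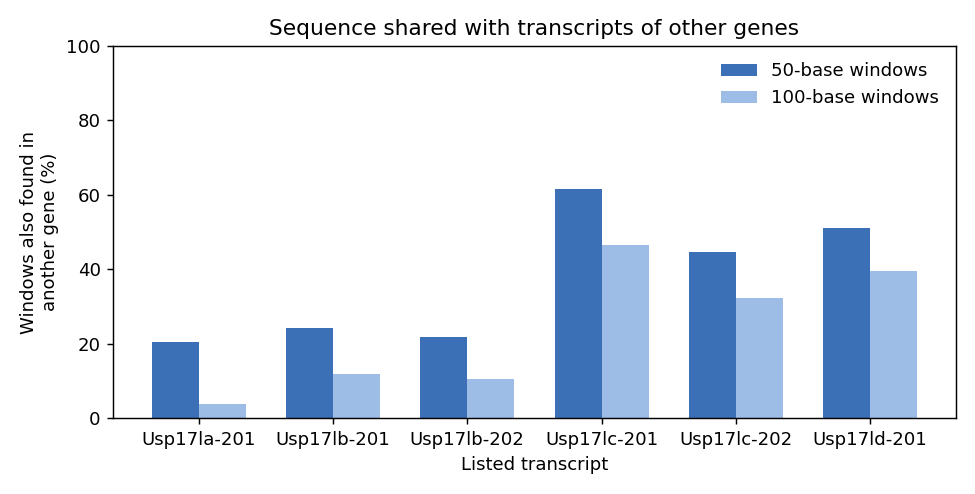
Share of windows of 50 and 100 bases (vertical axis, percent) of each listed Usp17l transcript that also occur, on either strand, in a GENCODE M21 transcript of another gene. The 3 transcripts of Usp17lc and Usp17ld reach 44.7% to 61.6% at 50 bases, and those of Usp17la and Usp17lb 20.4% to 24.2%.

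Usp17lb and Usp17lc were listed with 2 transcripts each. Usp17lb-201 holds only the coding sequence in this annotation, 1407 bases, and Usp17lb-202 has 1558 bases with UTRs. Usp17lb-201 was at 28.2 and 91.9 TPM in the GFP-positive libraries (GFP line, then fusion line), and Usp17lb-202 at 2.49 and 8.12 TPM. The longer form was 8.13% of the gene in the first line and 8.12% in the second, so the forms stood in nearly the same proportion.

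The Usp17lc transcripts start 1.62 kb apart. Usp17lc-202 starts at the exon chr7:103415072-103415121 and Usp17lc-201 at the exon chr7:103416696-103416745. The first exons, of 50 bases each, did not differ at any base, and neither did the coding sequences of 1638 bases (545 codons before the stop), so the forms differ in where the first exon lies and in the end of the last one (2403 and 1697 bases in all). Usp17lc-201 was at 15.0 and 21.2 TPM and Usp17lc-202 at 9.32 and 20.9 TPM. The form with the upstream exon was thus 38.3% of the gene in the GFP line and 49.6% in the fusion line. Usp17la and Usp17ld had 1 transcript each, of 2656 and 1987 bases.

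Few genes around the members were listed. Within 100 kb of a member, GENCODE M21 annotates 39 other genes, 28 of them olfactory receptor genes, and 8 of the 39 had a row. Only 3 of these 8 reached 1 TPM in any library. Gm4887, a processed pseudogene 18.0 kb from Usp17lb, was at 9.15 TPM (negatives) and 8.59 TPM (positives) in the GFP line, then at 8.96 and 9.40 TPM in the fusion line. Gm5900, a processed pseudogene 87.2 kb from Usp17la, was at 8.05 and 7.68 TPM, then at 7.86 and 7.61 TPM. Both were level across libraries in which Usp17la and Usp17lb stood at 0 or at 12.4 TPM and more. Gm23973, annotated as a miscellaneous RNA 19.0 kb from Usp17ld, was at 0.422 and 1.79 TPM, then at 2.53 and 1.08 TPM. The other 5 rows stayed at 0.275 TPM or less. Of these, the miRNA gene Gm23550 (0 and 0.0992 TPM, then 0 and 0.275 TPM) and the olfactory receptor gene Olfr603 (0 and 0.0526 TPM, then 0 and 0.0566 TPM) were above 0 only in GFP-positive cells. The miRNA gene Gm25171 was at 0 and 0.184 TPM, then at 0.0465 and 0.257 TPM. So near 0, with depth unknown, no direction is read from these values. Olfr596 and Olfr665 were each above 0 in 1 library.

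The genes with the profile most like the Usp17l sum lay on other chromosomes where a position was found. By the distance between centred log2(TPM + 1) values over the 4 libraries, the 5 nearest symbols to the family sum were Gm21293, Tmem92, Gm28062, Gm20765 and Gm21312, at distances of 0.579 or less. Gm21293, Gm20765 and Gm21312 are neighbours on chromosome 10, and Tmem92, a membrane protein gene, is at chr11:94777217-94782703. Tmem92 was, like the Usp17l genes, at 0 in both sorted negatives, with 64.8 TPM in the positives of the GFP line and 136 TPM in those of the fusion line. Gm21293 was at 3.999 and 316 TPM, then at 3.79 and 753 TPM.

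Compared with other 2C-like families, the mixed direction between lines was seen in the Usp17l and Zscan4 families. The Zscan4 sum over 5 genes was 1.78 times higher with the fusion than with GFP alone, the sum of 2 Tcstv genes 3.02 times and that of 5 Tdpoz genes 3.49 times, against 2.26 times for Usp17l. Both Tcstv genes and all 5 Tdpoz genes were higher, by 1.46 to 4.23 times. Of the Zscan4 genes 4 were higher and Zscan4c, whose promoter drives the reporters, was lower (497 and 366 TPM). The GFP-Zscan4c transcript of the fusion line also holds Zscan4c sequence, and its part in the Zscan4 values was not tested. Usp17ld, at 0.151, had the lowest ratio of the 16 genes in these families, and Zscan4c followed at 0.735. No Zscan4 gene, neither Tcstv gene and 1 of 5 Tdpoz genes were at 0 in both GFP-negative libraries, against 4 of 4 Usp17l genes. The share of all symbols with such paired zeros was not computed. In GFP-positive cells (GFP line, then fusion line) the Zscan4 sum was 973 and 1728 TPM, against 86.5 and 196 TPM for Usp17l. The Tcstv sum was 62.6 and 189 TPM and the Tdpoz sum 26.7 and 93.2 TPM, both below Usp17l. The part of expression level and unknown depth in the zeros was not tested. The other families also hold near copies. These differences have no replicates and were not tested.

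**Figure D4:**
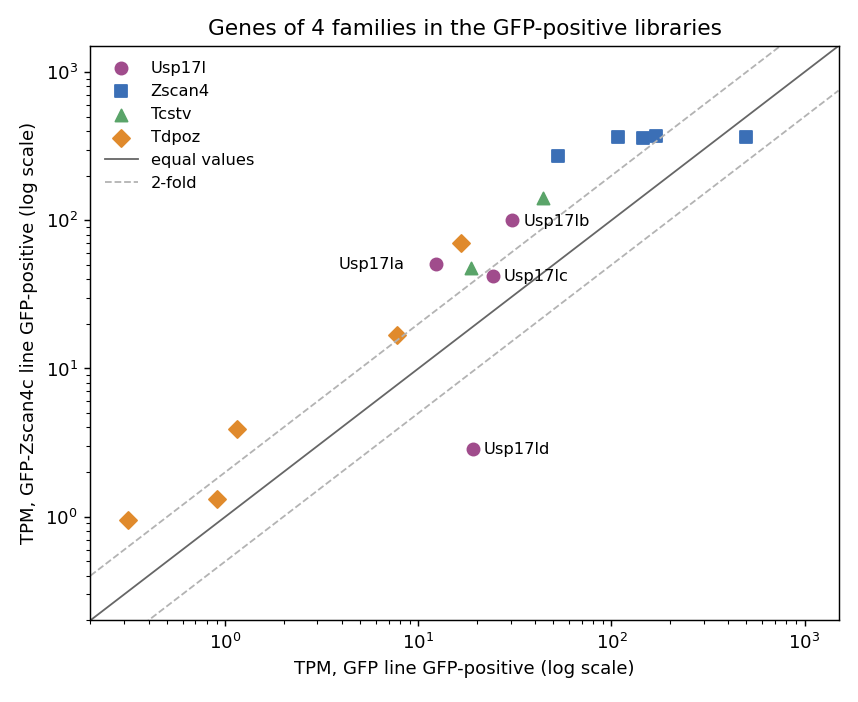
TPM of each gene of the Usp17l, Zscan4, Tcstv and Tdpoz families in the GFP-positive library of the GFP line (horizontal, log scale) and of the fusion line (vertical, log scale); each point is 1 gene, the solid line marks equal values and the dashed lines a 2-fold difference. Usp17ld (19.1 and 2.88 TPM) lies below the lower dashed line, and of the other genes only Zscan4c (497 and 366 TPM) lies below the solid line.

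Other deubiquitinases did not show the Usp17l pattern as a class. Of 53 other USP family genes, listed without a check of enzyme activity, 49 had a row. In the fusion line 46 were at 1 TPM or more, of which 6 were 2-fold or more higher and 1 lower, with a median log2 difference of 0.24 (all symbols: 11.5% higher, 4.49% lower, median 0.16). In the GFP line 20 of 45 were higher and 4 lower, with a median of 0.75 (all symbols: 38.2%, 8.16% and 0.30), but 17 of the 49 were listed at 0 in its GFP-negative library. Over the 32 above 0 in every library the medians were 0.13 in the GFP line and 0.25 in the fusion line, against -0.03 and 0.11 for all symbols. limma called 0 of the 45 that it fitted. At an unadjusted p under 0.05, 5 of the 45 were higher and 1 was lower. Of all 14379 genes fitted, 848 (5.90%) were higher and 124 lower at that threshold.

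Of the 49 other USP genes with a row, 3 were 2-fold or more higher in both lines, as were 5.83% of all symbols. Usp25 was listed at 0 and at 2.57 TPM, then at 0 and 4.09 TPM, and Cyld, which trims linear and K63-linked ubiquitin chains and restrains NF-κB signalling, was listed at 0 and at 2.67 TPM, then at 0 and 3.02 TPM. Usp14, which acts on the proteasome, was at 19.4 and 41.6 TPM, then at 22.0 and 46.5 TPM. The Usp17l sum was 5.97% of the summed TPM of Usp17l and listed other USP genes in the positives of the GFP line, and 12.4% in those of the fusion line. In the latter library 3 of the 49 other USP genes exceeded Usp17lb, and in the former 13 did.

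Among 33 deubiquitinases of the UCH, OTU, Josephin and JAMM classes, all with a row, 4 of 31 at 1 TPM or more were 2-fold or more higher and 1 lower in the fusion line (median 0.28), and 14 of 30 were higher and 1 lower in the GFP line (median 0.79), where 15 of the 33 were listed at 0 in GFP-negative cells. The first count is near the 11.5% of all symbols, and the second stands beside 38.2%. limma called 0 of 30, and 1 reached an unadjusted p under 0.05 upwards, as did 5.90% of all genes. The 3 that were higher in both lines were the OTU gene Otud6a (4.94 and 20.5 TPM, then 7.35 and 21.2 TPM) and the JAMM genes Stambpl1 (listed at 0 and at 3.74 TPM, then at 0 and at 2.79 TPM) and Stambp (listed at 0 and at 2.99 TPM, then at 1.44 and 4.01 TPM).

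Of the enzymes known to remove ubiquitin from histones H2A and H2B none was 2-fold apart in both lines. A row was found for 12 of 13, all of them also in the lists above. In the fusion line 1 of 12 was 2-fold or more higher (11.5% of all symbols) and in the GFP line 5 of 11 (38.2%). The medians were 0.24 in the fusion line and 0.32 in the GFP line, and limma called 0 of 11, with 0 at an unadjusted p under 0.05. Usp7 was the most abundant, at 139 and 173 TPM, then at 165 and 176 TPM. Usp16 was at 8.65 and 18.7 TPM, then at 10.8 and 12.9 TPM, and Bap1 at 47.9 and 37.9 TPM, then at 15.7 and 31.4 TPM. Usp21 (46.3 and 36.3 TPM, then 33.0 and 45.1 TPM), Usp22 (68.9 and 48.8 TPM, then 47.0 and 48.1 TPM), Usp3 (12.0 and 7.68 TPM, then 6.41 and 9.79 TPM) and Usp27x (3.81 and 3.63 TPM, then 2.40 and 3.004 TPM) stood lower in the positives of the GFP line and higher in those of the fusion line. Mysm1, the one higher in the fusion line, was listed at 0 and at 0.996 TPM, then at 0.730 and 4.53 TPM. Brcc3, Usp42 and Usp51 were listed at 0 in GFP-negative cells of the GFP line, and between 1.34 and 8.82 TPM in the other libraries. Usp49 was at 1.68 TPM in that library and between 13.2 and 14.0 TPM in the others.

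The RNA of reported substrates of USP17 enzymes showed no common direction, and 5 of 6 genes were above 0 in every library. The enzymes act on the substrate proteins, which were not measured here. Of 6 genes, 1 was 2-fold or more higher and 0 lower in the GFP line, against 38.2% and 8.16% of all symbols. In the fusion line none was either, against 11.5% and 4.49%. The medians were -0.19 in the GFP line and 0.23 in the fusion line. limma called 0 of 6, with 0 at an unadjusted p under 0.05. Cdc25a, the phosphatase that starts S phase, was at 45.5 and 35.6 TPM, then at 36.2 and 38.4 TPM. The protease gene Rce1, which processes Ras, was at 18.3 and 11.6 TPM, then at 7.49 and 11.2 TPM, and the Sin3 complex gene Suds3 at 39.5 and 40.3 TPM, then at 33.3 and 32.9 TPM. Ccna2 (82.6 and 72.2 TPM, then 73.9 and 90.0 TPM) and H2afx (533 and 466 TPM, then 383 and 480 TPM) were abundant, and Snai1 was low (listed at 0 and at 7.56 TPM, then at 0.867 and 1.11 TPM).

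The cytokine receptors known to switch on DUB genes in blood cells stood at 9.01 TPM or less or had no row. Of 13 receptor and JAK-STAT genes 8 had a row, and 7 of these 8 were listed at 0 in sorted negatives of the GFP line. At 1 TPM or more, 6 of 7 were 2-fold or more higher in the GFP line (median 2.46, against 38.2% and 0.30 for all symbols), and 1 of 5 was higher and 1 lower in the fusion line (median -0.28, against 11.5%, 4.49% and 0.16). Il3ra was at 4.51 TPM in the positives of the GFP line and listed at 0 in the other 3 libraries, as were Il2rg at 1.37 TPM and Jak2 at 4.78 TPM. Csf2ra was listed at 0 and at 6.56 TPM, then at 3.77 and 9.01 TPM. It was the 1 gene of the list that was 2-fold or more higher in both lines, as were 5.83% of all symbols. Jak1 was listed at 0 and at 22.9 TPM, then at 17.8 and 25.4 TPM, and Jak3 at 30.9 and 31.9 TPM, then at 37.9 and 31.1 TPM. Stat5a was listed at 0 and at 0.667 TPM, then at 3.32 and 0.964 TPM, and Stat5b at 0 and 2.09 TPM, then at 4.69 and 2.75 TPM. limma called 0 of the 4 that it fitted, with 0 at an unadjusted p under 0.05.

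Markers of the labelled states were as follows. All 11 2C-like markers, among them Zscan4f (0.174 and 170 TPM, then 0.0470 and 369 TPM), differed upwards by 2-fold or more in each line (medians 4.58 and 6.16). Of all symbols 38.2% did in the GFP line and 11.5% in the fusion line. limma called 0 of the 11, and all 11 reached an unadjusted p under 0.05 upwards, as did 5.90% of all genes. The list was chosen with earlier results known and holds Zscan4c, whose promoter drives the reporters, so the counts only describe these libraries. All 6 pluripotency genes were above 0 in every library, with Pou5f1 between 1075 and 1447 TPM, and limma called 0 of 6, with 0 at an unadjusted p under 0.05. In the GFP line 1 of the 6 was 2-fold or more lower (8.16% of all symbols) and in the fusion line 1 was higher (11.5%). Both counts are Klf4 (187 and 69.5 TPM, then 40.1 and 118 TPM). Since the family is known from blood cells, blood markers were checked: 2 of 8 had a row, Cd3e at 1.37 TPM in the positives of the GFP line and 0 elsewhere, and Spi1 at 0 and 1.35 TPM, then at 2.20 and 0 TPM. Their sum ran from 0 to 2.20 TPM in GFP-negative and from 0 to 2.72 TPM in GFP-positive libraries, and their part in the Usp17l values was not tested. Of 6 fibroblast and feeder markers 3 had a row. Thy1 moved with GFP status (listed at 0, then 11.9 TPM in the GFP line, and at 0, then 7.27 TPM in the fusion line), while Col1a1 and Col1a2 were at 0.114 TPM or less in every library; their summed level was 0 to 0.114 TPM in GFP-negative and 7.42 to 11.9 TPM in GFP-positive libraries, and its part in the Usp17l values was not tested.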

How the data were processed

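Messenger RNA of 4 sorted populations was measured, 1 library each, and samples were grouped by line and GFP status from their titles. The authors deposited TPM per transcript; HISAT2 2.1.0, StringTie 1.3.5, CASAVA and the build GRCm38 (mm10) come from the submitters' processing notes. Options, read length, annotation and the treatment of multiply mapping reads: not given in the sources used here. Listed TPM summed to 66.6% to 69.1% of a full scale, and depth is unknown.

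TPM were summed per gene symbol (Python 3.11.15). Differences are log2(TPM + 1), and 2-fold counts take genes at 1 TPM or more in either library. limma 3.58.1 in R 4.3.3 (trend and robust eBayes, two-sided, Benjamini-Hochberg) used 14379 symbols that reached 1 TPM in 2 or more libraries, with GFP status and line as terms. A gene at 0 in both GFP-negative libraries enters only through its GFP-positive values; all 4 Usp17l genes entered. The step was tested on simulated data. Positions, lengths and windows come from GENCODE M21, promoters from RefSeq, and identities from pairwise alignment (Biopython 1.88). Protein sequences were not used here. Named genes were all Usp17l genes, the 5 nearest profiles, genes within 100 kb, up to 4 per list that were 2-fold apart in both lines, and the substrate, cytokine and histone lists. A listed gene is not reported here and was left out of its list. Members and lists were chosen with earlier results of these data known. Alternatives were other pseudocounts, scalings, filters, no line term and leaving out libraries.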

Additional observations from a re-analysis of the deposited data

How the results depend on the processing

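The Usp17l members were at 0 in both GFP-negative libraries, so pseudocounts, median-ratio scaling and filters could not change the direction. The family was higher in GFP-positive cells under every alternative tried. Its size was set by the pseudocount: the log2 difference of the family sum was 9.76 and 10.94 (GFP line, then fusion line) with 0.1 TPM added and 4.19 and 5.33 with 5 TPM added, where the report has 6.45 and 7.62. Median-ratio scaling and quantile normalization kept it between 5.87 and 7.58, and kept the sum of Usp17lc and Usp17ld at 1.01 to 1.05 times and that of Usp17la and Usp17lb at 3.43 to 3.73 times between the GFP-positive libraries. With 5 TPM added, 3 of the 4 genes, without Usp17ld, passed 2-fold in the fusion line. No member was above 0 in both libraries of a line, so that filter gave no count.

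limma called 0 of the 4 genes with other pseudocounts, median-ratio scaling, no filter or no line term. Quantile normalization called 3 (Usp17la, Usp17lb and Usp17lc), with 316 genes called in all and a smallest adjusted p of 4.4e-114 from 1 residual degree of freedom. Leaving out a library with the line term left no residual degree of freedom and was not run. Without the line term, an alternative chosen after seeing the data, leave-one-out calls ranged from 0 to 2; the 2, Usp17lb and Usp17lc, came without the GFP-negative library of the fusion line, when 4204 genes were called against the library with 48.4% of symbols at 0. The line term pairs the libraries sorted from one line, and without this replicate block 0 of the 4 genes were called as with it. Unknown depth limits every value, the zeros included.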
